A study of Caenorhabditis elegans with 18 samples.

Results

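Small RNAs (sRNAs) of meg-3 meg-4 line 3 were compared with those of lines 2 and 4, which are other double mutants of the same pair of genes in Caenorhabditis elegans. The comparison used 6 of the 18 libraries of the series, chosen by their labels as the mixed-population sRNA libraries of lines 3, 2 and 4, with 2 libraries per line. Line 3 (strain JH3673) carries meg-3(ax3055) and meg-4(ax4311), line 2 (JH3672) carries meg-3(ax3055) and meg-4(ax4310), and line 4 (JH3674) carries meg-3(ax3055) and meg-4(ax4312). Thus these lines share 1 meg-3 allele and differ in the label of their meg-4 allele. Line 1, meg-3(ax3055) meg-4(ax3052), and the wild-type strain N2 are given as levels beside them and were in no test. All worms were whole animals of mixed stages grown at 20 C on NA22 bacteria. One label of line 2 gives young mother as its group, against mixed population in the title and the source, and the title was used. Each line is a single strain, so a difference between line 3 and the others belongs to that strain and cannot be assigned to an allele. The labels do not say whether the libraries of a line came from separate cultures, and the p-values measure only the spread between these libraries.

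MEG-3 and MEG-4 are intrinsically disordered proteins that build the germ granules of the embryo, called P granules. Many C. elegans sRNAs are secondary siRNAs, which RNA-dependent RNA polymerases copy from the messenger RNA of a target gene and which Argonaute proteins bind to silence or to license that gene. Such silencing can be passed on to progeny. The values here are sRNAs that map to a gene, in reads per 1000000 reads (RPM). They are not expression of that gene, and the files do not separate reads of either strand. No sequences or coordinates are printed.

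Of 42400 listed genes 29618 had a read in some of the 6 libraries, 23765 of these had a mean below 10 RPM, and 5853 were tested. At the edge of this limit gop-2 lay just inside with a mean of 10.003 RPM and slc-30A9 just outside with 9.995. Depth was 6.57 and 5.26 M (1e6) reads in line 3, 6.52 and 5.41 M in line 2 and 7.47 and 5.87 M in line 4. Replicates correlated across genes at 0.990 in line 3, 0.988 in line 2 and 0.986 in line 4 on the log2 scale. The chi-square per degree of freedom between them was 8.09, 8.93 and 12.03, more than sampling noise gives. sRNAs mapping to meg-3 amounted to 3 and 4 reads in line 3. Line 2 had 15 and 0, line 4 had 3 and 5, and N2 had 81 and 49 reads. For meg-4 there were 3 and 1 reads in line 3, while line 2 had 0 and 0, line 4 had 2 and 2, and N2 had 148 and 188. All 6 mutant libraries were thus below N2 at both genes.

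sRNAs of 28 genes were higher in line 3 than in the mean of lines 2 and 4 (0.478% of tested genes) and those of 48 genes were lower (0.82%), by limma with a Benjamini-Hochberg adjusted p below 0.05. When the difference also had to pass against line 2 and against line 4 separately, 12 genes were higher (0.205%) and 10 were lower (0.171%). The 12 included sid-1, the gene of a channel that imports double-stranded RNA, and pqn-24, a gene with a glutamine-rich and asparagine-rich domain. The 10 included rde-11, whose protein acts in RNA interference (RNAi) that supplied double-stranded RNA sets off. Against line 2 by itself 32 genes were higher in line 3 (0.547%) and 46 lower (0.786%), and against line 4 by itself 33 were higher (0.564%) and 38 lower (0.649%). Of the calls against the mean, 7 higher and 24 lower genes passed against line 2 alone, 6 and 13 passed against line 4 alone, and 3 and 1 passed against neither. The libraries of line 3 lay outside the range of the other 4 in RPM at 27 of the 28 higher and 33 of the 48 lower genes. Over all tested genes, line 3 lay wholly above the others at 566 genes (9.67%) and wholly below them at 179 (3.06%).

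Setting another line apart in the same way gave counts of the same order. Line 2 differed from the mean of lines 3 and 4 at 84 genes (1.44%), 44 higher (0.752%) and 40 lower (0.683%), and from each of them at 42 (0.718%), 26 higher (0.444%) and 16 lower (0.273%). Line 4 differed from the mean of lines 2 and 3 at 103 genes (1.76%), 55 higher (0.94%) and 48 lower (0.82%). It differed from each of them at 35 (0.598%), 24 higher (0.41%) and 11 lower (0.188%). For line 3 the totals were 76 (1.3%) and 22 (0.376%). Having such genes is thus not particular to line 3. The order of the totals of the 3 lines changed with the fit, and whether they differ from each other was not tested.

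**Figure D1:**
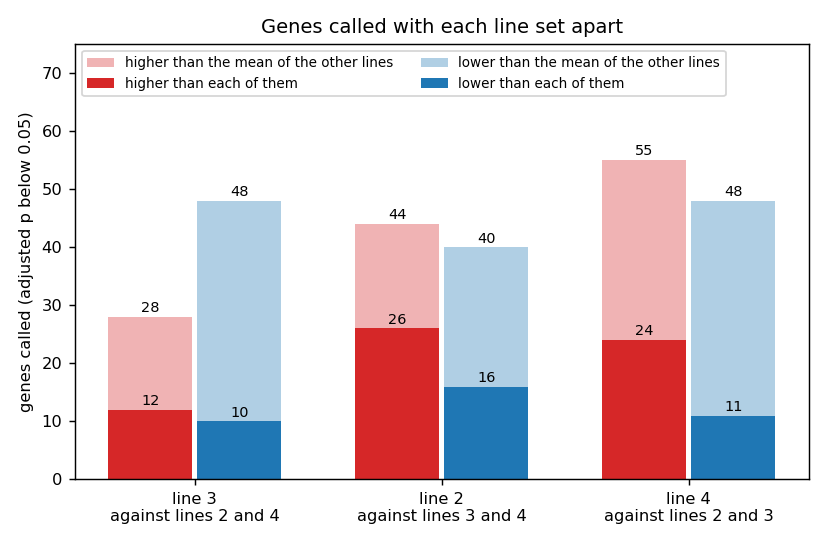
Number of genes called (vertical axis) with line 3, line 2 or line 4 set apart from the mean of the other lines, for higher genes (red) and lower genes (blue). Pale bars count calls against the mean and solid bars inside them calls against each line. Line 3 had 12 and 10 genes of the stricter kind, line 2 had 26 and 16, and line 4 had 24 and 11.

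The same-numbered libraries of the lines deviated together, so the replicate number was also used as a block. With this block 76 genes were higher (1.3%) and 82 lower (1.4%) in line 3 than in lines 2 and 4, and 29 (0.495%) and 23 (0.393%) against each line. All 28 higher and 48 lower calls, and all 22 calls against each line, were among them. When instead lines 2 and 4 were treated as 4 libraries of 1 group, so that their own difference counted as spread, 10 higher (0.171%) and 7 lower genes (0.12%) were called, all among the 76. Without line 3 replicate 1 the counts were 13 higher and 15 lower, and without line 3 replicate 2 they were 19 and 21.

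**Figure D2:**
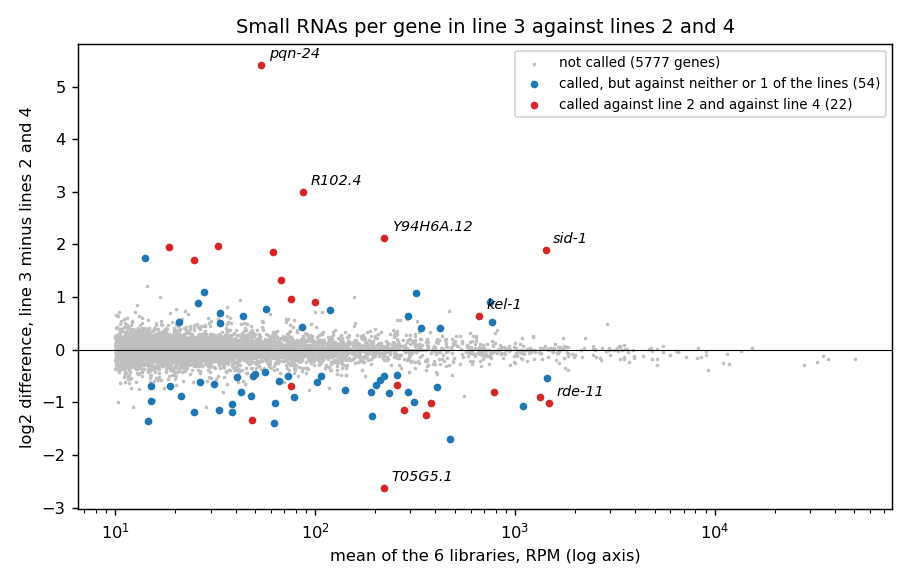
Each point is 1 of 5853 genes, with its mean over the 6 libraries in RPM (horizontal, log axis) and its log2 difference, line 3 minus lines 2 and 4 (vertical). Red points were called against both lines, blue points against 1 or neither, and grey points were not called. Most genes lie near 0 at every level, and pqn-24, R102.4, Y94H6A.12 and sid-1 stand highest among genes averaging at least 50 RPM.

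sid-1 had the most sRNAs of all genes higher in line 3. Its level was 2864 and 2778 RPM in line 3, against 762 and 728 in line 2 and 703 and 707 in line 4. Line 1 had 707 and 615 RPM and N2 had 480.4 and 440.3 RPM. Both line 3 libraries were far above the other 8, and lines 1, 2 and 4 lay close together above N2. The mean was 2821 ± 61.0 RPM in line 3 (SD, n = 2) and 725 ± 27.3 RPM in lines 2 and 4 (SD, n = 4). This was a log2 difference of 1.89 (SE 0.08, adjusted p = 1.94e-05 by limma), called in all 18 alternative fits.

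rde-11 went the other way. It had 816 and 1023 RPM in line 3, against 1569 and 1663 in line 2 and 1914 and 1908 in line 4. Line 1 had 3962 and 3573 RPM and N2 had 418 and 359 RPM, so line 3 was the lowest of the 4 mutant lines and still above the wild type. Against lines 2 and 4 the log2 difference was -1.01 (SE 0.09, adjusted p = 0.00147 by limma), with -0.81 against line 2 and -1.21 against line 4. The adjusted p was 0.0509 with lines 2 and 4 as 1 group.

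B0564.2, the neighbour of rde-11, had 269.8 and 479 RPM in line 3, against 431 and 666 in line 2 and 806 and 696 in line 4. Line 1 had 2919 and 2891 RPM and N2 had 49.1 and 51.6 RPM. The line 3 and line 2 ranges overlapped, and the log2 difference of -0.88 (SE 0.23) was not called by limma (adjusted p = 0.167). With the replicate block it was called (adjusted p = 0.0212). Another annotated gene overlaps B0564.2, so its sRNAs may be shared with that gene. fask-1, on the other side of rde-11, averaged 67.1 RPM in line 3 and 66.9 RPM in lines 2 and 4 and was not called.

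The other members of the dsRNA uptake and RNAi list showed no call. Of 12 tested members sid-1 was higher and rde-11 was lower, beside 0.478% higher and 0.82% lower over all tested genes. The median log2 difference was -0.02, beside -0.0032 over all tested genes. The Argonaute rde-1, which binds primary siRNAs, had 24.7 and 27.6 RPM in line 3, against 32.5 and 31.4 in line 2 and 31.9 and 30.5 in line 4. Its 2 line 3 libraries were below the other 4, with a log2 difference of -0.33 (adjusted p = 0.149 by limma). rde-4, whose protein hands double-stranded RNA to Dicer, had 115 and 114 RPM in line 3, against 133 and 120 in line 2 and 119.3 and 100.5 in line 4. It lay below line 2, overlapped line 4 and was not called. Dicer itself (dcr-1) differed by 0.02 (SE 0.09) on the log2 scale.

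Lists for the rest of the sRNA machinery held no call by limma, with or without the replicate block. They also held none by edgeR or DESeq2, which were run without the block. The lists were mutator genes and RNA-dependent RNA polymerases (14 tested, median log2 0.03), nuclear RNAi (14, -0.06), Argonaute genes (14, -0.06), the 26G pathway (9, -0.02), piRNA biogenesis (14, -0.05) and P granule components (14, -0.08). At an unadjusted p below 0.05 in limma the mutator list had 1 member higher and nuclear RNAi 1 lower. Argonautes and P granule components had 1 in each direction, piRNA biogenesis 2 lower and the 26G list none. Over all 5853 tested genes 629 had such a p in either direction. Among the polymerases, ego-1, which acts in the germline, had 88.0 and 94.9 RPM in line 3, against 97.2 and 96.2 in line 2 and 101 and 94.8 in line 4. hrde-1, the nuclear Argonaute of inherited silencing, had 680.2 and 748 RPM in line 3, against 668 and 659 in line 2 and 711 and 611 in line 4. Among P granule genes pgl-1 had 163 and 167 RPM in line 3, against 169 and 165 in line 2 and 177 and 158 in line 4. At pgl-1 line 3 overlapped both other lines. At ego-1 it lay just below line 2 and at hrde-1 just above it, and it overlapped line 4 at both. The pgl-1 paralogue pgl-2 had 22.8 and 25.1 RPM in line 3, against 23.0 and 20.9 in line 2 and 14.5 and 11.9 in line 4. Line 3 overlapped line 2 and lay above line 4, and the log2 difference of 0.40 was not called (adjusted p = 0.165 by limma). Another annotated gene overlaps pgl-2, so the assignment of its sRNAs is uncertain.

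**Figure D3:**
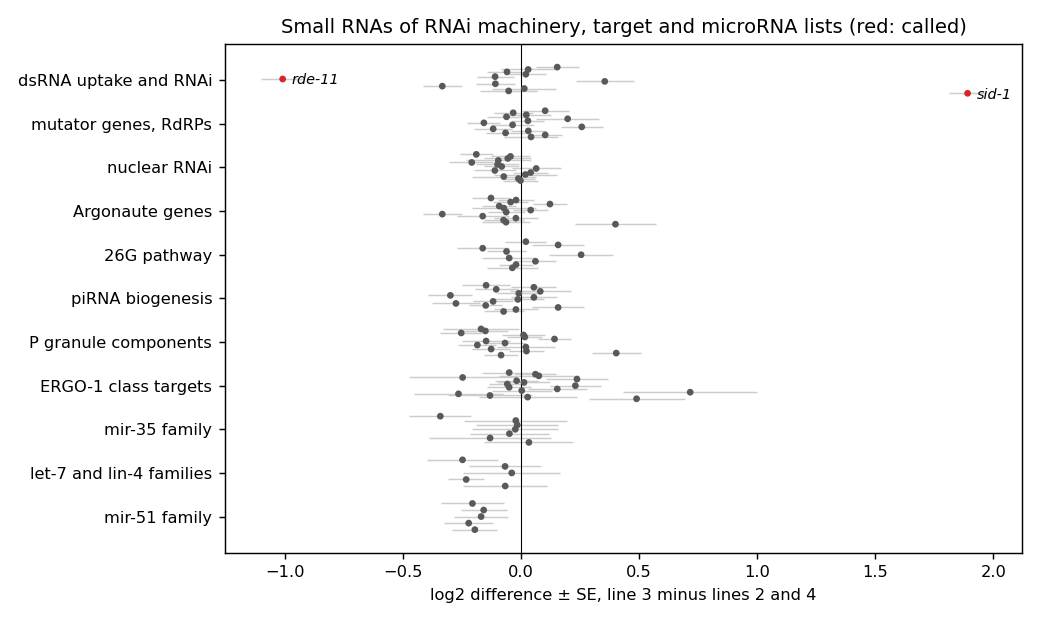
Log2 difference of each tested list member, line 3 minus lines 2 and 4, with its SE (horizontal) for lists of the RNAi machinery, ERGO-1 class targets and microRNA families (vertical). Red marks called genes. Only sid-1 and rde-11 were called among the genes drawn, and the remaining members lie between -0.34 and 0.72.

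pqn-24 showed the largest difference. It had 182 and 131 RPM in line 3, which were 1196 and 687 reads. Line 2 had 1.99 and 1.29 RPM (13 and 7 reads) and line 4 had 3.08 and 4.26 RPM (23 and 25 reads), while line 1 had 1.97 and 1.46 RPM and N2 had 0.949 and 0.262 RPM. Both line 3 libraries were thus at a level that none of the other 8 approached. Lines 2 and 4 averaged 2.66 RPM, so pqn-24 passed the limit of 10 RPM only through line 3, the side where it is high. The fitted log2 difference, 42.5-fold on the RPM + 1 scale, was 5.41 (SE 0.22, adjusted p = 1.94e-05 by limma). With an added value of 5 in place of 1 the log2 difference was 4.33, and by DESeq2 it was 5.93. The next genes on either side averaged below 10 RPM and were tested only with lower limits. idpp-10 had 9.13 and 4.94 RPM in line 3, against 0.153 and 0 in line 2 and 0.134 and 0 in line 4. It averaged 0.0718 RPM in lines 2 and 4 and passed a limit of 1 RPM only through line 3. With that limit it was called (log2 2.82, adjusted p = 0.000588 by limma). D1007.15 had 4.111 and 3.04 RPM in line 3, against 0.46 and 1.11 in line 2 and 0.804 and 2.21 in line 4, and was not called there (log2 1.10, adjusted p = 0.256 by limma).

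Y119C1B.1 is separated from pqn-24 by 2 genes. It had 42.5 and 32.3 RPM in line 3, against 4.60 and 5.91 in line 2 and 12.7 and 13.8 in line 4. Line 3 was highest and line 2 lowest, and N2 had 0.237 and 5.24 RPM. Lines 2 and 4 averaged 9.26 RPM, so Y119C1B.1 also passed the limit of 10 RPM only through line 3. The log2 difference was 1.95 (SE 0.18, adjusted p = 0.00147 by limma). It was not called with lines 2 and 4 as 1 group (adjusted p = 0.243) or with all 10 mixed libraries in the fit (adjusted p = 0.34).

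R102.4 had 217 and 204 RPM in line 3, against 34.7 and 28.6 in line 2 and 19.8 and 17.5 in line 4. With 23.97 and 25.1 RPM in N2 and 59.0 and 33.0 RPM in line 1, line 3 stood alone above all other libraries. Its log2 difference was 3.00 (SE 0.10, adjusted p = 1.37e-05 by limma).

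Y94H6A.12 had 466 and 457 RPM in line 3, against 121 and 129 in line 2 and 78.1 and 83.4 in line 4. Line 1 had 152 and 172 RPM and N2 had 31.8 and 26.96 RPM, so each mutant line exceeded N2 and line 3 exceeded the rest. The log2 difference was 2.12 (SE 0.09, adjusted p = 1.94e-05 by limma). The adjacent Y94H6A.7 had 478 and 494 RPM in line 3, against 338 and 321 in line 2 and 169 and 129 in line 4. It was called against the mean (log2 1.07, adjusted p = 0.00145 by limma) but not against line 2 (log2 0.57, adjusted p = 0.0571). The neighbour on the other side, Y94H6A.10, averaged 1180.4 RPM in line 3 and 1270.2 RPM in lines 2 and 4 and was not called.

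dnj-26, which encodes a J-domain co-chaperone, had 103.7 and 141 RPM in line 3, against 36.2 and 25.5 in line 2 and 33.8 and 30.8 in line 4. In RPM as deposited lines 2 and 4 were at the level of line 1, with 34.7 and 24.7 RPM, and of N2, with 30.1 and 26.4 RPM. The difference was 1.85 on the log2 scale (SE 0.14, adjusted p = 0.00085 by limma).

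H14A12.5 had 74.3 and 59.9 RPM in line 3, against 17.3 and 18.5 in line 2 and 12.99 and 13.96 in line 4. Line 1 was higher still, with 114 and 229.7 RPM, and N2 had 11.4 and 9.68 RPM. The log2 difference between line 3 and lines 2 and 4 was 1.97 (SE 0.14, adjusted p = 0.000636 by limma). Another annotated gene overlaps H14A12.5, so the assignment of its sRNAs is uncertain.

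At idpp-2 and at cec-8, a chromodomain gene, line 3 was the line nearest to the wild type. idpp-2 had 45.4 and 49.8 RPM in line 3, against 12.42 and 16.8 in line 2 and 13.7 and 10.7 in line 4, while N2 had 46.5 and 48.7 RPM. In RPM as deposited line 3 and N2 overlapped, and lines 1, 2 and 4 were below both, with line 1 at 10.6 and 16.6 RPM. For line 3 against lines 2 and 4 the log2 difference was 1.701 (SE 0.15, adjusted p = 0.00145 by limma). Another annotated gene overlaps idpp-2, so the assignment of its sRNAs is uncertain. cec-8 had 149 and 145 RPM in line 3, against 92.9 and 87.6 in line 2 and 63.9 and 58.7 in line 4. N2 had 247 and 240.0 RPM and line 1 had 48.4 and 48.6 RPM, so all mutant lines were below N2 and line 3 was below it by the least (log2 0.91 against lines 2 and 4, SE 0.08, adjusted p = 0.0014 by limma).

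The remaining genes higher than in each line were R11E3.2, R11E3.3 and kel-1, a kelch-repeat gene. R11E3.2 had 121 and 109.7 RPM in line 3, against 40.6 and 36.8 in line 2 and 56.4 and 41.4 in line 4, with a log2 difference of 1.33 (adjusted p = 0.00147 by limma). R11E3.3 had 98.8 and 131 RPM in line 3, against 57.0 and 72.2 in line 2 and 46.9 and 46.5 in line 4. Line 1 was as high as line 3 at this gene, with 95.2 and 141 RPM. Its log2 difference of 0.97 was lost in 4 of the 18 alternatives, among them the fit without line 3 replicate 1 (adjusted p = 0.0551) and the fit without line 3 replicate 2 (adjusted p = 0.119). kel-1 had 883 and 894 RPM in line 3, against 593 and 529 in line 2 and 561 and 499.6 in line 4, and its log2 difference of 0.64 was lost without line 3 replicate 1 (adjusted p = 0.115 by limma). kel-1 also overlaps another annotated gene, which leaves its sRNA assignment uncertain.

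**Figure D4:**
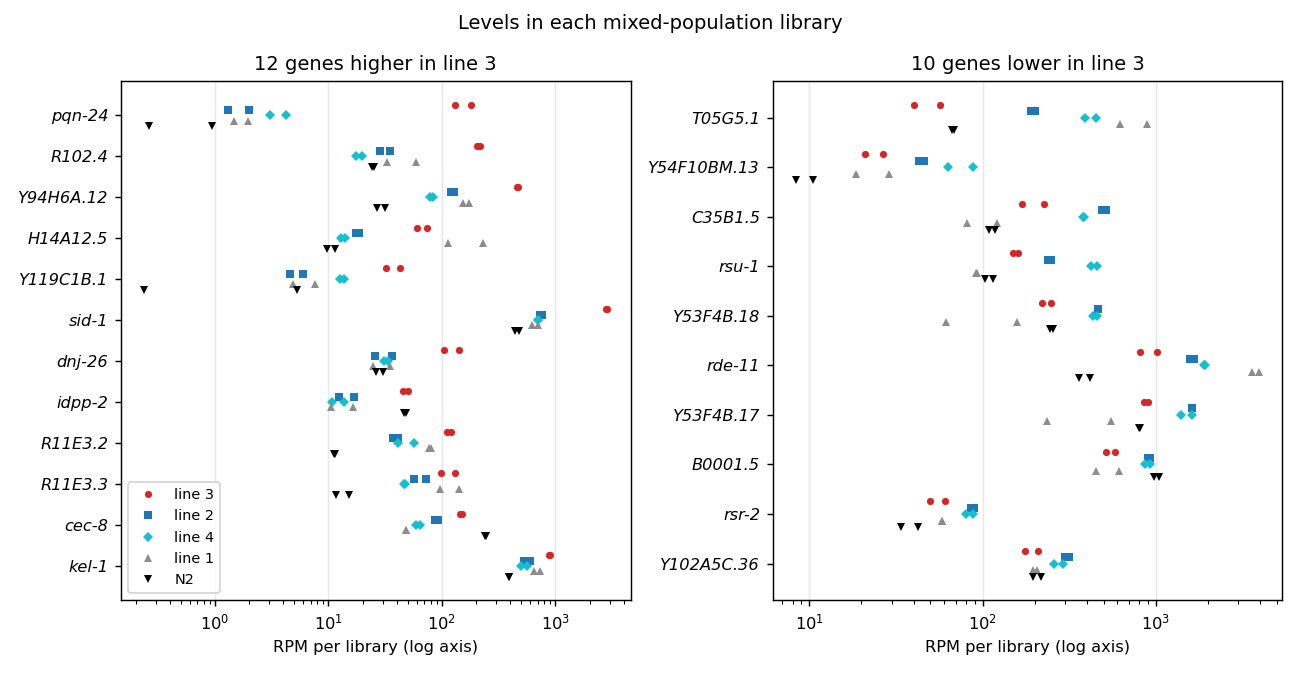
sRNA level in RPM (horizontal, log axis) of each mixed-population library for the 12 genes higher (left) and the 10 genes lower (right) in line 3 than in each of lines 2 and 4. Each point is 1 library, with line 3 in red above line 2, line 4, line 1 and N2. For all 22 genes the line 3 points do not overlap those of lines 2 and 4, beside 9.67% (above) and 3.06% (below) of all tested genes. The same values gave the calls, so this is not a separate result. For T05G5.1 line 3 adjoins N2.

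Among genes lower in line 3, T05G5.1 had the largest difference. It had 40.04 and 57.0 RPM in line 3, against 201 and 190.2 in line 2 and 454 and 388 in line 4. Line 1 had 623 and 893 RPM and N2 had 66.5 and 68.1 RPM. In RPM as deposited line 3 was just below the wild type, and the other mutant lines were several-fold above it. The fitted log2 difference, 6.18-fold lower in line 3 on the RPM + 1 scale, was -2.63 (SE 0.11, adjusted p = 1.94e-05 by limma). Its tested neighbour iff-1 averaged 69.7 RPM in line 3 and 66.9 RPM in lines 2 and 4 and was not called.

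Y53F4B.16, Y53F4B.17 and Y53F4B.18 are adjacent and were all lower in line 3. Y53F4B.17 had 904 and 856 RPM in line 3, against 1623 and 1613 in line 2 and 1627 and 1397 in line 4, with a log2 difference of -0.90 (adjusted p = 0.00191 by limma). Y53F4B.18 had 248 and 222 RPM in line 3, against 465 and 466 in line 2 and 455 and 435 in line 4 (log2 -1.02, adjusted p = 0.00145). At both genes line 3 was near N2 in RPM as deposited. N2 had 813 and 805 RPM of Y53F4B.17 and 245 and 254 RPM of Y53F4B.18. Line 1 was below N2 at both, with 552 and 235 RPM of Y53F4B.17 and 157 and 61.5 RPM of Y53F4B.18. Y53F4B.16 had 28.2 and 29.8 RPM in line 3, against 77.6 and 83.9 in line 2 and 33.4 and 32.2 in line 4, and was called against line 2 but not against line 4. With all 10 mixed libraries in the fit, where line 1 adds to the spread, the adjusted p was 0.277 for Y53F4B.17 and 0.243 for Y53F4B.18. Both overlap another annotated gene, so the assignment of their sRNAs is uncertain.

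C35B1.5 had 168 and 226 RPM in line 3, against 514 and 492 in line 2 and 379 and 386 in line 4, with 109 and 118 RPM in N2. Line 1 was below line 3 there, with 121 and 81.5 RPM. The log2 difference was -1.23 (SE 0.10, adjusted p = 0.00108 by limma). rsu-1, which encodes a leucine-rich repeat protein related to a Ras suppressor, had 160.2 and 149 RPM in line 3, against 239 and 249.9 in line 2 and 458 and 421 in line 4. At rsu-1 lines 3, 2 and 4 stood in separate steps (log2 -1.15 for line 3 against lines 2 and 4, adjusted p = 0.00085 by limma). N2, with 115 and 103.9 RPM, and line 1, with 92.2 and 93.5 RPM, were lower than line 3. Since lines 2 and 4 differed from each other, rsu-1 was not called when they were 1 group (adjusted p = 0.366). The same held for Y54F10BM.13, which had 20.9 and 26.6 RPM in line 3, against 46.0 and 43.2 in line 2 and 88.7 and 63.0 in line 4 (log2 -1.33, adjusted p = 0.00187 by limma, and 0.236 with lines 2 and 4 as 1 group). Line 1 overlapped line 3 at Y54F10BM.13, with 28.8 and 18.6 RPM. Both rsu-1 and Y54F10BM.13 overlap another annotated gene, and the assignment of their sRNAs is uncertain.

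Smaller differences were found at B0001.5, rsr-2 and Y102A5C.36. B0001.5 had 514 and 581 RPM in line 3, against 933 and 905 in line 2 and 925 and 869 in line 4, with 1043 and 973 RPM in N2 and 618 and 449 RPM in line 1. Line 3 and line 1 overlapped each other here and lay below the other libraries (log2 -0.80 for line 3 against lines 2 and 4, adjusted p = 0.0014 by limma). rsr-2, a gene of a splicing factor related to SR proteins, had 49.9 and 61.0 RPM in line 3, against 88.9 and 86.1 in line 2 and 88.4 and 80.0 in line 4. Y102A5C.36 had 177 and 208 RPM in line 3, against 314 and 301 in line 2 and 291 and 259 in line 4. Their log2 differences were -0.70 and -0.66 (adjusted p = 0.00573 and 0.00414 by limma), and both were lost without line 3 replicate 1 (adjusted p = 0.106 and 0.0922). Line 1 overlapped line 3 at both genes, with 58.3 and 58.3 RPM of rsr-2 and 207 and 197 RPM of Y102A5C.36.

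The levels of N2 and line 1 given beside the lines are RPM as deposited. On that scale N2 was nearer to lines 2 and 4 for 17 of the 28 higher genes (60.7%, beside 17.1% of the 2879 tested genes with a positive difference). For the 48 lower genes it was nearer to line 3 at 33 (68.8%, beside 43.4% of 2974 with a negative difference). Among the 22 genes called against each line, N2 was nearer to lines 2 and 4 for 10 of 12 higher genes, idpp-2 and cec-8 being the exceptions, and nearer to line 3 for 9 of 10 lower genes, B0001.5 being the exception. Line 1 lay on the side of lines 2 and 4 at 17 of the 28 higher genes (60.7%, beside 29.5%) and on the side of line 3 at 36 of the 48 lower genes (75%, beside 42.3%). These positions depend on the scale, because the median gene of N2 stood 0.55 and 0.31 above the mean of the 10 libraries in log2. With each library shifted by its median, N2 was nearer to lines 2 and 4 at 20 of the 28 higher genes (71.4%, beside 51.9%) and nearer to line 3 at 37 of the 48 lower genes (77.1%, beside 47.0%). Line 1 then lay on the side of lines 2 and 4 at 23 higher genes (82.1%, beside 62.5%) and on that of line 3 at 41 lower genes (85.4%, beside 43.7%). Among the 22 genes called against each line, N2 on shifted values was nearer to lines 2 and 4 for 10 of 12 higher genes. It was nearer to line 3 for all 10 lower genes, B0001.5 included. Small gaps to N2 described at single genes are in RPM as deposited and can change with this shift. Line 1 and N2 were in no test, and these are counts of positions only.

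**Figure D5:**
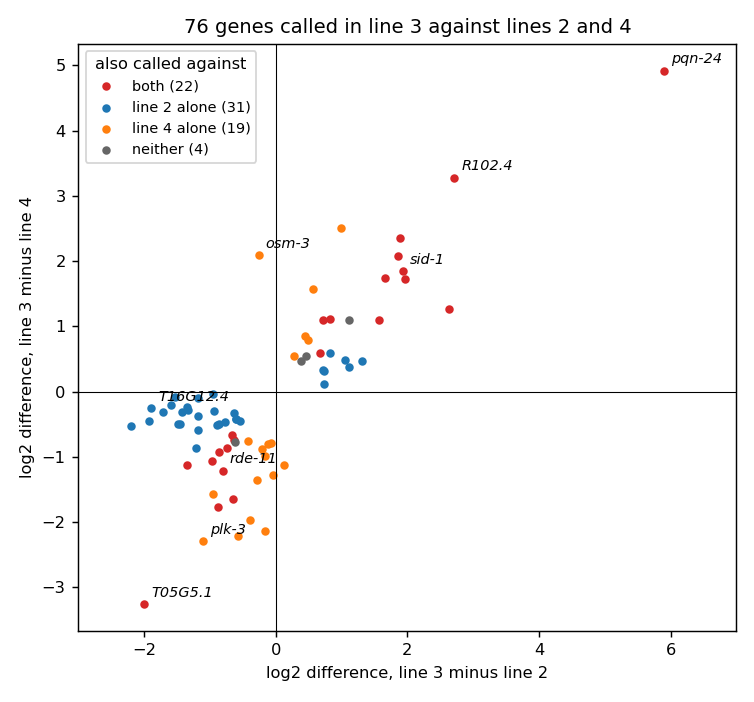
The 76 called genes by their log2 difference to line 2 (horizontal) and to line 4 (vertical), line 3 minus the other line in each case. Colours show whether the gene was also called against both lines (22), line 2 alone (31), line 4 alone (19) or neither (4). Points near the horizontal zero line differ from line 2 and hardly from line 4, as T16G12.4 does, and those near the vertical zero line differ from line 4 and hardly from line 2, as osm-3 does.

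Most calls against the mean passed against only 1 of lines 2 and 4, which does not show equality with the other. Among genes passing against line 2 alone, line 3 lay outside the range of both lines at 7 of 7 higher and 13 of 24 lower. For line 4 alone it did so at 5 of 6 higher and 9 of 13 lower. The following examples were picked after their values were seen. T16G12.4 had 516 and 621 RPM in line 3, against 2226 and 2018 in line 2 and 601 and 614 in line 4, so line 2 stood apart. osm-3, a kinesin of sensory cilia, had 1008 and 857 RPM in line 3, against 1151 and 1098 in line 2 and 211 and 181 in line 4, so line 4 stood apart. plk-3, a polo-like kinase gene, had 165 and 206 RPM in line 3, against 324 and 495 in line 2 and 697 and 955 in line 4. It was called against line 4 alone, although line 3 lay below line 2 as well. The muscle gene dys-1 (dystrophin) had 76.1 and 87.6 RPM in line 3, against 73.9 and 77.6 in line 2 and 165 and 158 in line 4. Line 3 overlapped line 4 at T16G12.4 and line 2 at dys-1. T16G12.4 and osm-3 overlap another annotated gene, so the assignment of their sRNAs is uncertain.

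Of the 39 gene lists, 3 had no tested member, and 5 held a call. The MATH and BTB domain genes, whose products include adaptors for protein degradation, had 3 lower and 0 higher of 30 tested, beside 0.82% lower and 0.478% higher over all tested genes, with a median log2 of -0.03. The 3 genes, bath-1, bath-5 and bath-19, lie near each other, with 1 gene between the first pair and 2 between bath-5 and bath-19. bath-5 had 48.7 and 52.3 RPM in line 3, against 72.7 and 64.5 in line 2 and 78.5 and 77.1 in line 4 (log2 -0.59, adjusted p = 0.0101 by limma). bath-19 (log2 -0.51) and bath-1 (log2 -0.50) were called against line 2 and not against line 4, and bath-5 against line 4 and not against line 2. All 3 lost the call in 3 or more of the alternatives, among them the fit without line 3 replicate 1 (adjusted p = 0.146 for bath-5, 0.209 for bath-19 and 0.181 for bath-1). Among 17 tested pqn and abu genes pqn-24 alone was called, and among 21 tested chemoreceptor genes srx-12 was higher, with 59.4 and 58.2 RPM in line 3, against 44.2 and 42.5 in line 2 and 30.5 and 27.2 in line 4. It passed neither without line 3 replicate 1 (adjusted p = 0.178 by limma) nor without line 3 replicate 2 (adjusted p = 0.0599).

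A list of 14 tested genes was taken from earlier results on these libraries, so it is not independent evidence. It held 2 higher and 2 lower genes, beside 0.478% and 0.82% over all tested genes. Besides pqn-24 and rde-11 these were B0261.8 and trp-4, a mechanosensory channel gene. With the replicate block the list held 4 higher and 3 lower genes, beside 1.3% and 1.4% over all tested genes. B0261.8 had 1020.3 and 954 RPM in line 3, against 614 and 583 in line 2 and 766 and 663 in line 4, with 62.7 and 57.1 RPM in N2. trp-4 had 11.9 and 15.02 RPM in line 3, against 31.4 and 32.1 in line 2 and 17.4 and 19.8 in line 4, with 392 and 418 RPM in N2. All mutant lines were thus on the same side of N2 at both genes, with line 3 slightly farther from it than lines 2 and 4. The log2 differences were 0.53 for B0261.8 (adjusted p = 0.0289 by limma) and -0.89 for trp-4 (adjusted p = 0.0113). Leaving out a single library ended the call of B0261.8 in 5 of 6 cases and that of trp-4 in 3 of 6.

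No member of the ERGO-1 class targets was called (17 tested, median log2 0.01, 2 higher at an unadjusted p below 0.05 in limma, and 0 by edgeR and DESeq2). These genes give rise to siRNAs bound by the Argonaute ERGO-1. One of them, E01G4.5, had 4487 and 2881 RPM in line 3, against 3494 and 2517 in line 2 and 1984 and 2042 in line 4. F-box A genes held 0 calls of 50 tested, with 3 higher and 4 lower at an unadjusted p below 0.05, 0 by edgeR and 2 higher by DESeq2. By DESeq2 43 of all 5853 tested genes were higher. With the replicate block 2 F-box A genes were higher and 1 lower, beside 1.3% and 1.4% over all tested genes. Of 344 tested piRNA genes 0 were called by limma, edgeR or DESeq2. With the replicate block 1 piRNA gene was lower, beside 1.4% over all tested genes. At an unadjusted p below 0.05 limma had 4 higher and 7 lower. Over all 5853 tested genes 629 had such a p in either direction.

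MicroRNAs are made by a separate route and here served as a view of the stages and tissues in the samples. Of 103 tested microRNA genes 0 were called against lines 2 and 4 by limma, edgeR or DESeq2. At an unadjusted p below 0.05 limma had 0 higher and 8 lower, and the median log2 difference was -0.19. Against line 4 the median was -0.32 and 30 microRNA genes were lower at an unadjusted p below 0.05 in limma. After adjustment limma and edgeR called 0 of the 103 against line 4. DESeq2 called 3 lower, beside 61 lower of all 5853 tested genes. The replicate block called 7 lower, beside 114 lower of all 5853. Against line 2 the median was -0.06. Over all 5853 tested genes 629 had an unadjusted p below 0.05 in limma against lines 2 and 4, in either direction. Against line 4 there were 972 such genes. MicroRNA genes took 33.8 and 31.1% of reads in line 3, against 32.5 and 35.5% in line 2 and 34.0 and 38.3% in line 4. Because RPM values are shares of a fixed total, differences are given relative to the median gene.

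The mir-35 family, which marks oocytes and embryos, summed to 50105 and 32873 RPM in line 3, against 44293 and 35326 in line 2 and 39171 and 38141 in line 4. Members of the let-7 and lin-4 families, which mark larvae and adults, summed to 12278 and 12262 RPM in line 3, against 13312 and 14255 in line 2 and 16633 and 11227 in line 4. For the mir-35 family line 3 overlapped both other lines, while for let-7 and lin-4 it lay below line 2 and overlapped line 4. Reads of the yolk genes were higher in line 4 replicate 2 than elsewhere, at 268 RPM for 6 genes, beside 60.9 and 70.9 RPM in line 3, against 64.5 and 118.8 in line 2, while line 4 replicate 1 had 58.0 RPM. Of the 18 tested oocyte and eggshell genes 0 were called by limma, edgeR or DESeq2. At an unadjusted p below 0.05 in limma 2 were lower, beside 629 of all 5853 tested genes in either direction. No sperm list had a tested member. In such whole-animal samples fewer cells of a type and fewer sRNAs per cell cannot be told apart, and the part of stage in the calls was not tested.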

How the data were processed

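sRNA libraries were made from RNA treated with 5' polyphosphatase with a TruSeq kit, per the labels' protocols. The submitters' processing notes name cutadapt, Bowtie2, HISAT2, HTSeq, DESeq2 and build ce10, without versions or roles; strand setting, annotation and filters are not given in the sources used here. The deposited values are RPM per gene and library, summing to 1000000 in each, and 100% of them were whole reads within 0.02. The N2 columns of the 4 mixed-population tables are identical, so the tables share 1 scale.

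limma 3.58.1 (R 4.3.3) with a mean trend was run here on log2(RPM + 1) for genes averaging 10 RPM or more over 6 libraries. Each library was shifted by its median deviation from the 6-library mean, 3 line means were fitted, and line 3 was contrasted with the mean of lines 2 and 4. The added 1 understates changes of low genes. A gene was called at a Benjamini-Hochberg adjusted p below 0.05 over 5853 genes. In the tables of results a positive log2 difference means higher in line 3. On simulated data for this comparison (5759 genes) limma recovered 99% of 2-fold and 100% of 4-fold changes, and 5.85% of calls were false. The simulated libraries were drawn independently, and lines 2 and 4 had the same mean. In the real data same-numbered libraries deviated together and lines 2 and 4 differed, so these rates cannot be carried over to the calls here.

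Alternatives were values as deposited, trimmed mean of M-values (TMM) factors, other added values and filters, edgeR 4.0.16 and DESeq2 1.42.0 on the recovered whole reads, other designs, a replicate block and each library left out. Deviations of same-numbered libraries from their line means correlated at 0.364 (lines 3 and 2), 0.258 (lines 3 and 4) and 0.420 (lines 2 and 4), so the numbers were taken as pairs. What a number marks is not stated in the labels, and replicate 1 was the deeper library in each of lines 2, 3 and 4.

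Named genes were meg-3, meg-4, sid-1, rde-11, B0564.2, up to 15 genes per direction called against each line (at least 10 RPM in every library of the higher side, no overlap), up to 4 called members per list, called neighbours and called microRNAs. The comparison, the members and the lists were chosen with earlier results of these data known. Biotypes and neighbours came from a RefSeq table of a later build, matched for 98.5% of genes.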

Additional observations from a re-analysis of the deposited data

How the results depend on the processing

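Of the 22 genes called against each line, 12 kept the call against the mean of lines 2 and 4 in every alternative fit that tested them. The other 10 lost that call in some fit. Calls against each line were not followed gene by gene through every fit. No named gene changed direction, but most were picked as clearly different in these same libraries, so this says little. The 28 higher calls against lines 2 and 4 became 68 with values as deposited, 46 with a mean of at least 1 RPM, 18 with at least 50, 102 without a filter, 43 with DESeq2, 10 with lines 2 and 4 as 1 group, 16 with all 10 mixed libraries and 76 with the replicate block. The 48 lower calls became 30 with a mean of at least 50 RPM, 7 with lines 2 and 4 as 1 group and 82 with the block. Calls higher than each line (12) became 23 as deposited, 33 without a filter and 29 with the block, and calls lower than each (10) became 16 with DESeq2 and 23 with the block. Genes tested numbered 12654 with a mean of at least 1 RPM, 1710 with at least 50 and 29618 without a filter. Counts under these filters are thus not shares of the same 5853 genes. Against each line the design with 1 group gives no value. Line 2 set apart (84 calls) gave 48 with at least 50 RPM, 157 without a filter, 38 with all 10 libraries and 194 with the block, and line 4 set apart (103) gave 611 as deposited, 485 without a filter, 40 with all 10 libraries and 317 with the block. Among named genes the block changed no call but that of B0564.2, which was also gained without a filter.

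Leaving out 1 library gave 13 to 29 higher and 15 to 40 lower calls, 7 to 14 and 3 to 12 against each line, and 30 to 80 for line 2 and 45 to 61 for line 4 set apart. Without line 3 replicate 1 there were 13 higher and 15 lower calls, without line 3 replicate 2 there were 19 and 21, and the lower calls were 31 without line 2 replicate 1 and 28 without line 2 replicate 2. In these fits the lone library of a line is assumed to vary like the others.

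As deposited, the median log2 difference of all genes was 0.07 against lines 2 and 4 and 0.14 against line 4, and 62.4% of calls were higher, beside 36.8% relative to the median gene and 35.5% with TMM factors. The excess of lower over higher calls therefore depends on the scaling. With 2 libraries per line the smallest difference called was 0.41 on the log2 scale. With a mean of at least 1 RPM, 27 of the 28 higher genes were among the 46 called, and idpp-10, which averages below 10 RPM, was called as well; 1 strain per line leaves no replicate of a line.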
